A study of Mus musculus with 61 samples.

Results

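The genes described here are 7 cytokine genes of T helper cells, namely Il3, Csf2, Il4, Il13, Il5, Il9 and Il10, out of 24421 genes counted in every library. They were found by their symbols in the first column of each count file. Il9 and Il13 were chosen by their higher read counts with the N642H construct in CD4+ T cells, so their values in comparisons with N642H libraries are given as a description, without a test. Other contrasts with the empty vector share its libraries with the contrast that chose these 2 genes, so their tests there are not independent of the choice and are kept apart from the counts of called members.

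The series holds 61 total RNA-seq libraries of mouse cells and tissue, from animals 2 months of age whose strain is labelled C57BL/6, the knock-in alleles having been made in C57BL/6N. In the first experiment naive CD4+ CD44low CD25- T cells from pooled lymph nodes and spleens were activated with anti-TCR and anti-CD28, transduced, kept in IL-2 for 48 h and then sorted for CD4 and the GFP of the vector. The vector was empty or encoded mouse STAT5B without a mutation, STAT5B N642H, STAT5B Y665H or STAT5B Y665F, and every vector gave 3 libraries of Stat5a/b-null and 3 of WT cells. The second experiment holds splenic T cells isolated by negative selection, and the third holds spleens. The null background came from Cd4-Cre acting on floxed Stat5a/b, which deletes the locus in CD4 and CD8 cells alike. The genotype label of all 30 CD4 libraries names the floxed locus, those titled WT included, so the background was read from the titles. The splenic T cells spent 24 h in culture under IL-2 plus IL-7 and gave 4 WT, 4 Y665H and 4 Y665F libraries, and 3 more Y665F libraries had no interleukin. The spleens gave 4 WT, 5 Y665H and 7 Y665F libraries, are labelled as tissue but titled as splenocytes, and had no stimulation. The knock-in alleles of Stat5b were made by base editing for Y665H and by Cas9 with an oligonucleotide for Y665F, and the labels do not give their zygosity. The study calls the replicates of its transduced cells independent biological replicates, but no label says which libraries came from separate animals or cultures, and where they did not, p-values measure a spread that may be technical.

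IL-3 and GM-CSF, the product of Csf2, are growth factors of myeloid cells, and their genes lie side by side. IL-4, IL-5 and IL-13 are the signature cytokines of Th2 cells, acting on B cells, eosinophils and epithelia, and their genes share one locus with those of IL-3 and GM-CSF. IL-9 is the product of the Th9 subset and acts on mast cells, whereas IL-10 restrains inflammation. STAT5, which is activated by IL-2 and IL-7 through JAK kinases, is known to take part in opening the Il4 and Il13 locus and in the transcription of Il9 in T helper cells.

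The annotation (GENCODE M21, build GRCm38) places 5 of the 7 genes within 664 kb of chromosome 11, where Il4 (chr11:53602982-53618669, minus strand), Il13 (chr11:53631324-53634702, minus), Il5 (chr11:53720794-53725106, plus), Csf2 (chr11:54247271-54249667, minus) and Il3 (chr11:54265303-54267277, minus) follow each other. A gap of 522 kb separates Il5 from Csf2, and only 15.6 kb lie between Csf2 and Il3. Il9 (chr13:56479277-56482246, minus) and Il10 (chr1:131019845-131024974, plus) lie on other chromosomes. The counts are sums over whole genes and do not separate exons or isoforms. RefSeq (build GRCm38.p6) gave a promoter window, 250 bases before to 50 bases after a transcript start, for 6 of the 7 members, with none used here for Il10.

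The windows of the 4 genes on which the CD4+ T-cell results turn most are printed 5′ to 3′ on the strand of the gene, namely Il3 and Csf2, which were called with N642H and with Y665F in null cells, and Il13 and Il9, which were chosen through N642H. Capitals mark matches to the 4 motifs searched on both strands, namely TTC and GAA with 3 or with 4 bases of any kind between them, a form that STAT proteins bind, and AGATAA and TGATAA, whose form GATA factors bind. The Il3 window is chr11:54267230-54267529, the Csf2 window chr11:54249850-54250149, the Il13 window chr11:53634653-53634952 and the Il9 window chr13:56482208-56482507, all on the minus strand.
Il3: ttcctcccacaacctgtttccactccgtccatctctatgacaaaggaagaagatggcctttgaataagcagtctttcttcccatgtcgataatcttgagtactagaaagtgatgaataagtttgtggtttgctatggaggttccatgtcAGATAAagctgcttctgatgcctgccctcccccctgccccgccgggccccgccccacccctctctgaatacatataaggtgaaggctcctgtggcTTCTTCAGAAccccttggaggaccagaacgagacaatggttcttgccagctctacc
Csf2: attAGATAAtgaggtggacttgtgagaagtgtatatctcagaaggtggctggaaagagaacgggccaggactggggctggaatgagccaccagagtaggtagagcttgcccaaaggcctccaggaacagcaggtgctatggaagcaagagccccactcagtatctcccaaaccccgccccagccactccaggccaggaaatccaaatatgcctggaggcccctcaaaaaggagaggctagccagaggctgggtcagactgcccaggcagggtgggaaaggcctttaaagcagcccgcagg
Il13: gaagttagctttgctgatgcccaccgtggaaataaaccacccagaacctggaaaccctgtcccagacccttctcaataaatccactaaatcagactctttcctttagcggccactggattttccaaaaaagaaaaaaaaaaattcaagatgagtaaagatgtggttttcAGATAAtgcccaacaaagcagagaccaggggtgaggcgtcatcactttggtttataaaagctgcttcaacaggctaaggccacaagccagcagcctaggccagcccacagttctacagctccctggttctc
Il9: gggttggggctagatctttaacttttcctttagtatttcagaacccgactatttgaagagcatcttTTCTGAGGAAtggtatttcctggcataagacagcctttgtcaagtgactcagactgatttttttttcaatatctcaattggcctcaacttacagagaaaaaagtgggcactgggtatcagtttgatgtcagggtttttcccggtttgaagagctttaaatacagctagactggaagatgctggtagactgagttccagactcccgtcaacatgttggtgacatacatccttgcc
With the transcript start counted as 0, the Il3 window held TTCTTCAGAA at -6 to 3 and AGATAA at -101 to -96. The Il9 window held TTCTGAGGAA at -184 to -175, the Il13 window AGATAA at -81 to -76 and the Csf2 window AGATAA at -247 to -242. The Csf2 positions count from a RefSeq start upstream of the GENCODE start at chr11:54249667, which lies outside this window. RefSeq lists 2 windows for Il4, of which one held TTCATGGAA at -4 to 4 and the other TTCACAGGAA at -167 to -158 and TGATAA at 14 to 19, and the Il5 window held none of the 4. Among all 32851 windows of this length, 8.3% held TTC and GAA 3 bases apart, 6.95% held them 4 bases apart, 11.2% held AGATAA and 9.05% held TGATAA. These matches describe the letters of the windows and are not sites of binding.

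The CD4+ T-cell libraries held 18825994 to 49850689 reads on genes, the splenic T-cell libraries 2017012 to 27394249 and the spleens 24203179 to 43330536, so that 4 splenic T-cell libraries of under 6000000 reads show a low gene only as a few reads. CPM are the reads of a gene per 1000000 reads on genes after TMM scaling, which corrects for the make-up of each library. The targeted genes followed the titles. Stat5b was at 5.86 ± 3.39 CPM (SD, n = 3) in null cells with the empty vector and between 186 and 365 CPM in the 12 null libraries with a construct, against 187 to 209 CPM in WT cells with the empty vector. Stat5a, which no vector carries, was between 99.5 and 179 CPM in WT cells and at most 14.9 CPM in null cells. Transcripts of the T-cell list were abundant in all CD4 libraries, with a summed level of 2190 to 4220 CPM. The list of mast cell and basophil genes summed to 1.49 to 7.04 CPM, led by Hdc, and the eosinophil list to 0.233 to 13.8 CPM.

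In Stat5a/b-null CD4+ T cells most of the cytokine genes were low or at 0 with the empty vector and higher with STAT5B N642H and STAT5B Y665F, while none was called with STAT5B Y665H. Of the 5 members not chosen through N642H, both N642H and Y665F raised Il3, Csf2 and Il4, and STAT5B without a mutation raised Il3 alone. Il9 and Il13 also passed the test with Y665F, against the same empty-vector libraries that took part in their choice. Il5 and Il10 passed no test in these cells. A gene was called where the quasi-likelihood test of edgeR, adjusted over all genes by Benjamini-Hochberg, gave an adjusted p under 0.05 and the log2 fold change went beyond 1 in either direction. Against the empty vector, this held for 0.477% of 20113 genes in the STAT5B contrast, 2.88% for N642H, 2.37% for Y665F and 0.0249% for Y665H. The 4 contrasts share the same 3 empty-vector libraries.

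**Figure D1:**
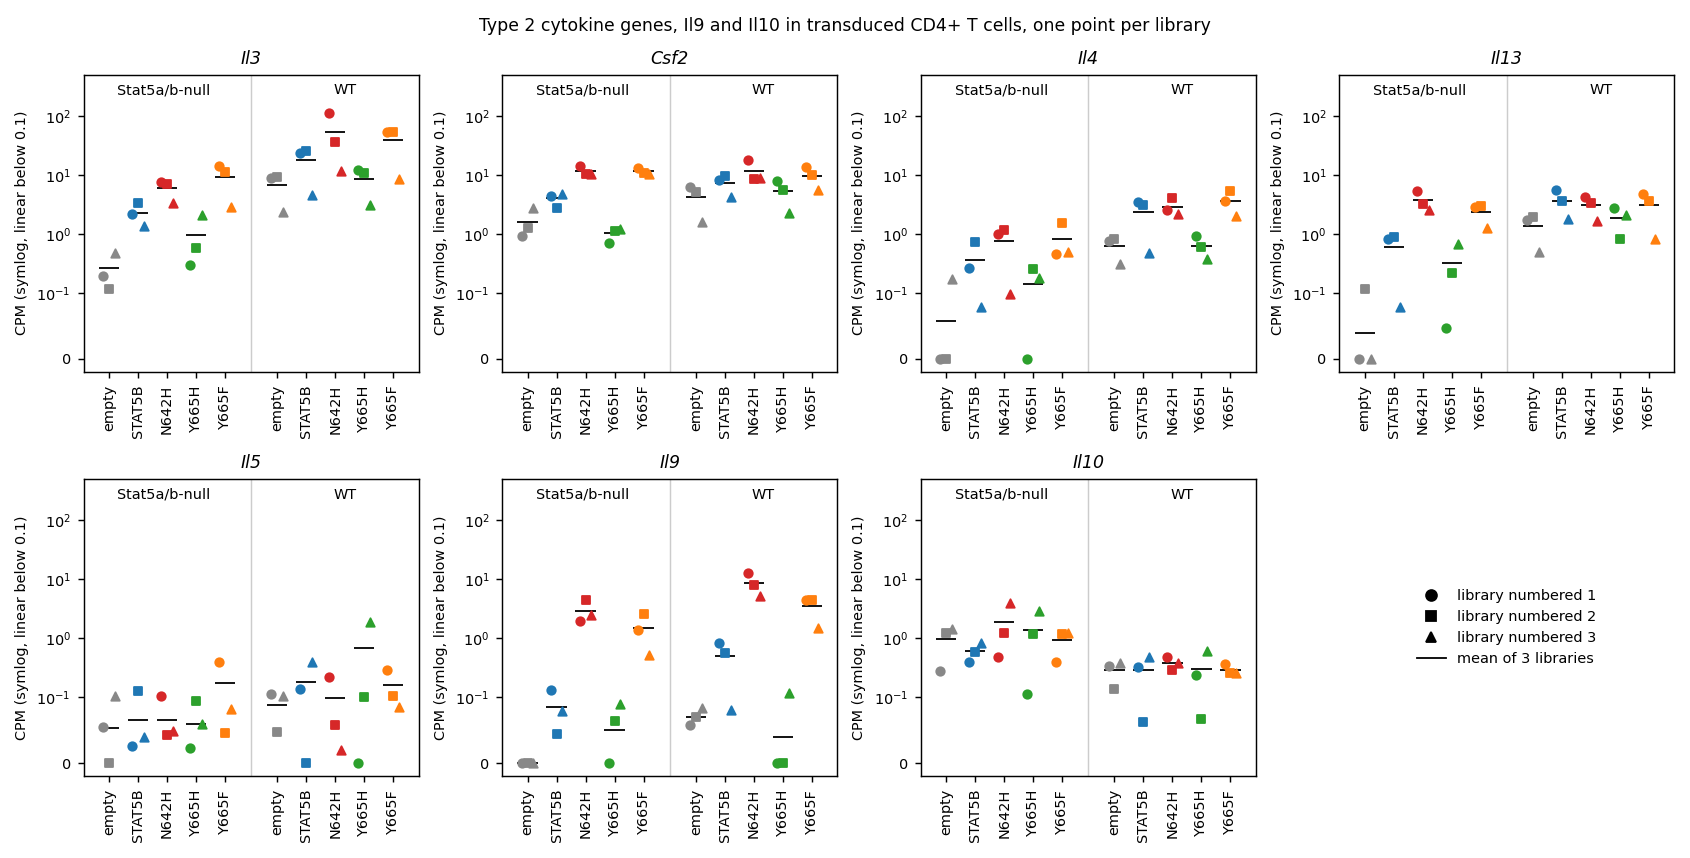
CPM of the 7 cytokine genes in each of the 30 CD4+ T-cell libraries (y axis, symlog, linear below 0.1 CPM) by background and vector (x axis), with symbols for the replicate number and a line at the mean of 3 libraries. In Stat5a/b-null cells Il9 was at 0 CPM in all 3 empty-vector libraries and between 0.531 and 4.39 CPM with N642H or Y665F.

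Il3, the gene of the multilineage growth factor interleukin-3, had 7, 4 and 14 reads in the null libraries with the empty vector (replicates 1 to 3), or 0.192, 0.116 and 0.483 CPM. With STAT5B it reached 2.18, 3.33 and 1.39 CPM, with N642H 7.59, 6.91 and 3.36 CPM, and with Y665F 13.9, 11.03 and 2.86 CPM. All 9 of these libraries were above all 3 of the empty vector, and the library numbered 3 was the lowest of its group with each of the 3 constructs. The rise was 3.16 ± 0.73 (log2 fold change ± SE) with STAT5B, with an adjusted p of 0.0384 by the edgeR test, and this call was lost without replicate 1 or 2 of either group (adjusted p from 0.11 to 0.173). It was 4.51 ± 0.73 with N642H (adjusted p = 0.000664) and 5.15 ± 0.74 with Y665F (adjusted p = 0.000274). With Y665H, Il3 had 13, 18 and 69 reads (0.299, 0.57 and 2.07 CPM), which overlaps the empty vector. Its difference of 1.93 ± 0.77 did not pass the test (adjusted p = 0.896). Against STAT5B the difference was -1.24 ± 0.62 (adjusted p = 0.507), and without the libraries numbered 3, an alternative chosen after seeing the data, it was -2.68 and called (adjusted p = 0.00398).

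Csf2, which encodes GM-CSF, was at 0.907, 1.25 and 2.73 CPM in null cells carrying the empty vector. With N642H it was at 14.1, 10.2 and 10.3 CPM and with Y665F at 13.1, 10.7 and 10.5 CPM, so that both groups lay above every empty-vector and STAT5B library. In both groups the library numbered 3 was close to the one numbered 2. Against the empty-vector library of the same number, it had the smallest ratio, 3.77 with N642H and 3.85 with Y665F. The group differences were 2.81 ± 0.33 and 2.80 ± 0.33 on the log2 scale (adjusted p = 4.4e-05 and 5.03e-05). STAT5B gave 4.36, 2.8 and 4.8 CPM, also apart from the empty vector, and its difference of 1.30 ± 0.33 was just outside the threshold (adjusted p = 0.0559). Libraries with the same replicate number deviated together in these cells, and with the number as a block, when 1.01% of all genes were called, so was the STAT5B difference in Csf2 (adjusted p = 0.00694). Y665H left Csf2 at 0.714, 1.14 and 1.23 CPM, overlapping the empty vector and reaching below it. Against STAT5B, Csf2 was lower with Y665H, at a log2 fold change of -1.94 ± 0.34 (adjusted p = 0.0216), and the groups did not overlap. This was the 1 member called among 0.149% of all genes in that comparison, and the call was lost without STAT5B replicate 1, Y665H replicate 1 or Y665H replicate 3 (adjusted p = 0.128, 0.101 and 0.0979).

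Among the Th2 cytokine genes, Il4 and Il13 were almost silent in null cells with the empty vector. Il13, whose product drives mucus and fibrosis programmes, had 0, 4 and 0 reads there and 96, 126 and 31 reads with Y665F (2.91, 2.92 and 1.27 CPM). Every Y665F library was above every empty-vector library, and the log2 fold change was 5.75 ± 0.98 (adjusted p = 0.00121). With STAT5B, Il13 had 31, 41 and 2 reads, and the difference of 3.84 ± 1.05 missed the threshold (adjusted p = 0.0726) and was called with the replicate number as a block (adjusted p = 0.019), by DESeq2 (adjusted p = 0.0219) and without STAT5B replicate 3 (adjusted p = 0.0303). N642H, the construct by which Il13 was chosen, gave 202, 156 and 51 reads (5.32, 3.28 and 2.52 CPM). Y665H gave 2, 7 and 23 reads.

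Il4, the gene of the cytokine that directs B cells to IgE and T cells to the Th2 fate, had 0, 0 and 5 reads with the empty vector in null cells. It had 38, 55 and 2 reads with N642H and 15, 65 and 12 with Y665F, so that N642H replicate 3 lay within the range of the empty vector and all Y665F libraries above it. The log2 fold changes were 3.79 ± 1.19 (adjusted p = 0.0465) and 3.89 ± 1.19 (adjusted p = 0.0473). Both calls stood close to the threshold and were lost with RLE size factors (adjusted p = 0.0522 and 0.0534) and when any 1 of 4 libraries was left out (adjusted p up to 0.162 and 0.217). STAT5B gave 10, 34 and 2 reads of Il4 and a difference that did not pass (2.76 ± 1.22, adjusted p = 0.292). Il5, the eosinophil growth factor gene, had at most 13 reads in any null library, and its difference with Y665F of 1.66 ± 1.14 did not pass (adjusted p = 0.44).

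Il9 had no read in the 3 null libraries with the empty vector, which together hold 97211610 reads on genes. With Y665F it had 46, 110 and 13 reads, at least 54.3-fold higher when the empty vector is set to the 3 reads over the group that a count of 0 allows, and the difference was called (adjusted p = 0.000221). N642H, by which Il9 was chosen, gave 75, 209 and 50 reads, at least 102-fold higher. STAT5B gave 5, 2 and 2 reads and Y665H 0, 2 and 3, and neither difference passed the test. Against STAT5B the rise of Il9 with Y665F was 4.12 ± 0.70 on the log2 scale, with no overlap between the groups. It missed the threshold (adjusted p = 0.07) and was called with the replicate block (adjusted p = 0.00257), by DESeq2 (adjusted p = 7.53e-05) and without Y665F replicate 3 (adjusted p = 0.00686).

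Il10, an anti-inflammatory cytokine gene, passed the test with none of the constructs in null cells. Its level was 0.275 to 1.42 CPM in empty-vector libraries, 0.394 to 0.833 CPM under STAT5B, 0.474 to 3.9 CPM with N642H, 0.115 to 2.9 CPM with Y665H and 0.394 to 1.23 CPM with Y665F. The library numbered 3 was the highest of its group in all 5 groups.

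**Figure D2:**
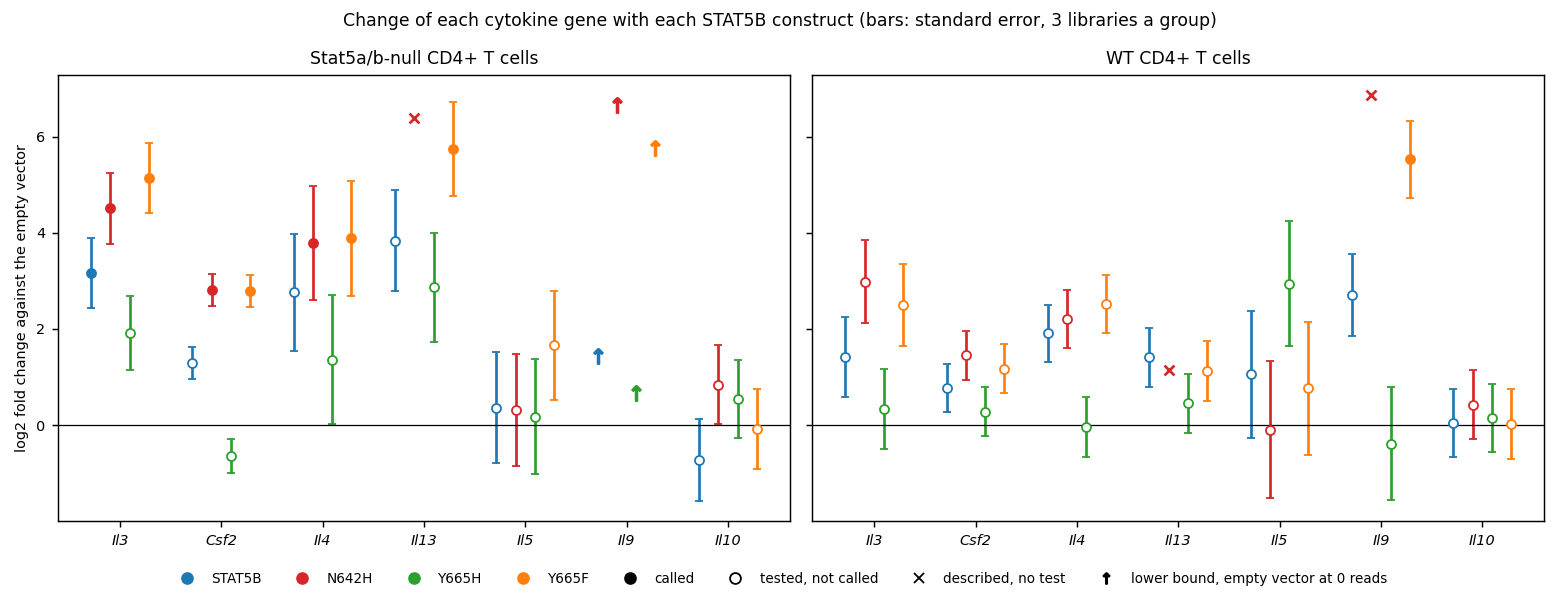
Log2 fold change against the empty vector (y axis) of each cytokine gene (x axis) for the 4 constructs in Stat5a/b-null (left) and WT (right) CD4+ T cells, with bars of 1 standard error and filled points for called genes. Arrows are lower bounds where the empty vector had 0 reads and crosses are values without a test; the points of N642H and Y665F were close to each other for Csf2, at 2.81 and 2.80 in null cells.

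N642H and Y665F were next compared with STAT5B without a mutation and with each other in the null cells. Against STAT5B, no tested member was called with N642H or Y665F, where 0.0696% and 0.00994% of all genes were. The differences in Csf2, of 1.51 ± 0.31 with N642H and 1.503 ± 0.31 with Y665F, were called with the replicate block (adjusted p = 0.087 without and 0.00356 with it, and 0.131 without and 0.00547 with it), when 0.328% and 0.194% of all genes were. In each of the 3 replicate numbers Csf2 was higher than with STAT5B, by 3.22, 3.64 and 2.14 times with N642H and by 3.0, 3.8 and 2.19 times with Y665F. Il3 was likewise higher in 3 of 3 numbers with each, but its differences of 1.35 ± 0.58 and 1.98 ± 0.58 passed neither fit (adjusted p = 0.804 and 0.602, and 0.284 and 0.101 with the block). Between Y665F and N642H the difference in Il3 was 0.64 on the log2 scale (95% interval -0.53 to 1.80), in Csf2 -0.01 (-0.63 to 0.62) and in Il4 0.09 (-1.79 to 1.98), and these intervals leave room for differences of more than 2-fold in Il3 and Il4. No gene at all was called in that comparison (0%), and 181 of 20113 had an unadjusted p under 0.05, by edgeR's quasi-likelihood test. DESeq2 also called 0. For the genes chosen through N642H, Il9 was at 1.98, 4.39 and 2.47 CPM with N642H and 1.4, 2.55 and 0.531 CPM with Y665F, and the groups overlapped, as did those of Il13. Within the replicate numbers, N642H was above Y665F in 3 of 3 for each of these 2 genes. Their choice by counts with N642H favours this order, so it does not show that N642H acts more strongly.

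WT CD4+ T cells with the empty vector already held more RNA of several members. Compared with WT cells, null cells with the empty vector were lower in Il3, Csf2 and Il4, 3 of the 5 members not chosen through N642H, and in Il13, where 4.68% of 21975 genes were called. Il3 was at 9.01, 9.12 and 2.33 CPM in WT cells against at most 0.483 CPM in null cells, a log2 fold change of -4.73 ± 1.05 (adjusted p = 0.00269). For Il13 it was -5.00 ± 1.06 (adjusted p = 0.00167), for Il4 -3.53 ± 1.10 (adjusted p = 0.0307) and for Csf2 -1.41 ± 0.48 (adjusted p = 0.0454). The groups did not overlap for Il3, Il4 and Il13, but they did for Csf2, because WT replicate 3 was at 1.58 CPM and null replicate 3 at 2.73 CPM. The Il4 and Csf2 calls were lost when replicate 1 or replicate 2 of either group was left out. Il9 was near its floor in both, with 2, 3 and 4 reads in WT cells against 0, and Il10 went the other way without passing the test (1.75 ± 0.84, adjusted p = 0.183).

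In WT cells all groups were spread widely by replicate number. Il3 was the lowest in the library numbered 3 in all 5 groups, where its level was a median of 0.186 times the mean of the libraries numbered 1 and 2, and the same held in 5 of 5 groups for Il4 and in 4 of 5 for Csf2 and Il13. All 30 pairs of WT libraries with the same number had correlated deviations, with Pearson's r from 0.117 to 0.633 at the median, so the fit with the number as a block is given beside the fit without it. Without the block, none of the 5 members not chosen through N642H was called in WT cells, and Il9 was called with Y665F, against 0.00975% of 20509 genes for STAT5B, 0.985% for N642H, 0.707% for Y665F and 0.00488% for Y665H. With the block, these shares were 0.419%, 2.59%, 2.44% and 0.00488%, and of those 5 members 2 were called with STAT5B, 3 with N642H, 3 with Y665F and none with Y665H, besides Il9 with Y665F.

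Il3 in WT cells reached 23.8, 25.9 and 4.62 CPM with STAT5B, 113, 36.0 and 11.6 CPM with N642H, 53.3, 53.8 and 8.54 CPM with Y665F, and 11.96, 10.8 and 3.11 CPM with Y665H. Within each replicate number Y665H lay below STAT5B, and STAT5B below N642H and Y665F. N642H was above Y665F in numbers 1 and 3 and below it in number 2. N642H was 12.5, 3.95 and 4.95 times the empty-vector library of the same number, Y665F 5.92, 5.89 and 3.66 times, STAT5B 2.64, 2.83 and 1.98 times and Y665H 1.33, 1.19 and 1.33 times. The log2 fold changes were 2.99 ± 0.87 with N642H, 2.499 ± 0.85 with Y665F and 1.42 ± 0.83 with STAT5B, none of which passed without the block (adjusted p = 0.123, 0.181 and 1.0). With it all of them did (adjusted p = 1.3e-07, 1.13e-06 and 0.00577). Y665H, at 0.33 ± 0.83, passed neither fit, with a 95% interval from -1.44 to 2.10 without the block. Against STAT5B, Il3 was higher with N642H and with Y665F in 3 of 3 numbers, and both differences were called with the block and not without it (blocked log2 fold changes 1.44 and 1.04, adjusted p = 0.0021 and 0.0453), the one with N642H also with 1 RUVr factor (adjusted p = 0.00807). In these comparisons 0.00488% and 0% of all genes were called without the block and 0.458% and 0.215% with it. The 0 genes for Y665F by edgeR compare with 632 at an unadjusted p under 0.05 and 10 called by DESeq2.

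**Figure D3:**
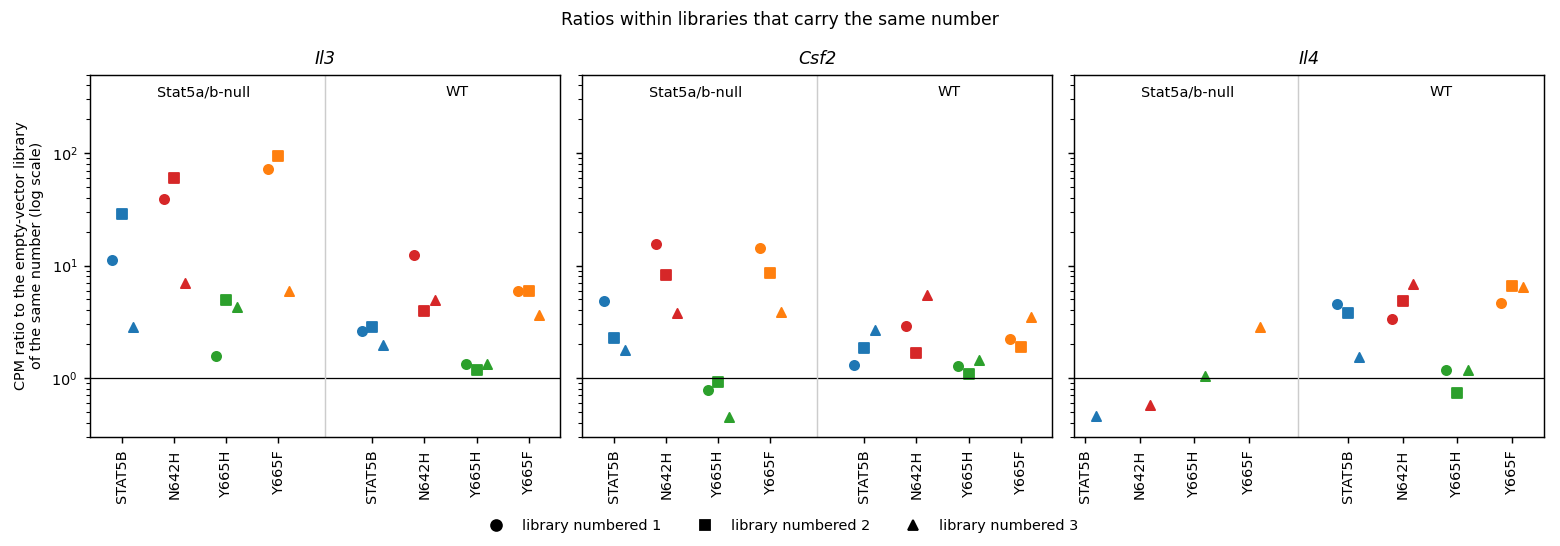
Ratio of the CPM of Il3, Csf2 and Il4 with each construct to the empty-vector library of the same replicate number (y axis, log scale) by background and construct (x axis), with a line at 1 and no point where the empty-vector library had 0 reads. In WT cells Il3 with N642H lay at 12.5, 3.95 and 4.95, and with Y665H between 1.19 and 1.33.

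Csf2 showed a narrower range in WT cells, from 6.15, 5.18 and 1.58 CPM with the empty vector to 17.8, 8.63 and 8.71 CPM with N642H and 13.6, 9.86 and 5.55 CPM with Y665F. N642H lay above the empty vector in all libraries, whereas Y665F replicate 3 fell within its range. The log2 fold changes of 1.45 ± 0.51 and 1.17 ± 0.51 passed with the block (adjusted p = 4.21e-05 and 0.000667) and not without it (adjusted p = 0.239 and 0.302). Y665H was at 0.28 ± 0.51, with a 95% interval of -0.80 to 1.35. For Il4 the same pattern held at lower levels. It was at 0.773, 0.821 and 0.316 CPM with the empty vector, 2.57, 4.0 and 2.16 CPM with N642H and 3.57, 5.36 and 2.03 CPM with Y665F, with no overlap for either construct. These rises of 2.22 ± 0.60 and 2.53 ± 0.60 passed with the block (adjusted p = 8.46e-05 and 2.94e-05), and the one with Y665F was just outside the threshold without it (adjusted p = 0.0516, and 0.0904 for N642H). STAT5B, at 1.91 ± 0.60, had an adjusted p of 1.0 for Il4 and was called with the block (adjusted p = 0.00921) and without the libraries numbered 3 (adjusted p = 0.00806).

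Il9 in WT cells had 2, 3 and 4 reads in the empty-vector libraries, 36, 18 and 4 under STAT5B and 0, 0 and 6 with Y665H. Y665F gave 107, 172 and 54 reads (4.44, 4.45 and 1.52 CPM), each above every library of the other 3 groups, and the log2 fold change of 5.53 ± 0.80 against the empty vector was called (adjusted p = 0.00424). Against STAT5B, Il9 was 5.32, 7.94 and 18.9 times as high with Y665F within the replicate numbers. That difference of 2.82 ± 0.64 did not pass (adjusted p = 0.739) but was called with the block (adjusted p = 0.000282), with 1 RUVr factor (adjusted p = 0.00757) and without the libraries numbered 3 (adjusted p = 0.00584). N642H gave 236, 278 and 261 reads (12.9, 8.11 and 5.26 CPM), above all Y665F libraries, and is described only. Il13 behaved otherwise, in that WT cells already had 61, 82 and 24 reads with the empty vector. It had 113, 139 and 29 with Y665F and 235, 117 and 91 with STAT5B, and the difference with Y665F of 1.12 ± 0.62 passed neither fit (adjusted p = 0.445, and 0.068 with the block). N642H gave 76, 116 and 81 reads of Il13, or 0.762, 0.928 and 0.893 times the CPM of the STAT5B library of the same number, so that in WT cells it lay below STAT5B in 3 of 3 numbers. The same held for Y665F, at 0.861, 0.987 and 0.447 times.

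Il5 and Il10 stayed low in WT cells, at most 1.92 and 0.614 CPM. One library stood apart for Il5, Y665H replicate 3 with 97 reads, while replicates 1 and 2 of that group had 0 and 3 reads. The log2 fold change of Il5 with Y665H, 2.95 ± 1.31, did not pass the test (adjusted p = 1.0) and became -0.74 without that library. Per kilobase of exon, which allows genes to be compared, the mean level in WT cells with N642H was 85.1 CPM per kb for Il3, 16.3 for Il9, 14.6 for Csf2, 2.54 for Il13, 2.37 for Il4, 0.297 for Il10 and 0.0644 for Il5. Il9 and Il13 were chosen through N642H, which favours their places in this group. In WT cells Il9 was below Csf2 with Y665F (6.48 against 12.1 CPM per kb) and with STAT5B (0.918 against 9.07). In null cells with the empty vector it was 2.03 CPM per kb for Csf2, 0.747 for Il10, 0.419 for Il3 and at most 0.0469 for the other 4, so that Csf2 and Il10 were the leading cytokine genes there.

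The order of the group means differed between the genes. Il3 was highest in WT cells with N642H and lowest in null cells with the empty vector, and of its 9 neighbouring pairs of groups only null N642H and null STAT5B did not overlap. Csf2 was highest with N642H in WT and then in null cells, and its 1 separated pair was null STAT5B above null empty vector. Il9 was highest in WT cells with N642H, followed without overlap by WT cells with Y665F, but its choice through N642H favours this place and is no result. No neighbouring groups were separated for Il4, Il13, Il5 or Il10. How often neighbouring groups were separated for other genes was not counted. Il10 was highest in null cells, which took the upper 5 places.

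Whether a construct acted differently in the 2 backgrounds was tested with an interaction contrast over both. Without a block, no member was called in any of the 3 interactions, where 0.1% of genes were called for STAT5B, 0.341% for N642H and 0.419% for Y665F. With a block of replicate numbers within each background, an alternative chosen after seeing the data, 0.519%, 1.57% and 1.34% of genes were called. Il3 and Csf2 were then called in the Y665F interaction, and Csf2 in the N642H interaction. Il13 also passed with Y665F, but this contrast shares the empty-vector libraries that took part in its choice. In null cells those libraries had 0, 4 and 0 reads of Il13. The rise with Y665F was larger in null than in WT cells by 2.76 for Il3, 1.64 for Csf2 and 4.73 for Il13 on the log2 scale (adjusted p = 0.0347, 0.0092 and 0.00638). With N642H the rise of Csf2 was larger in null cells by 1.32 (adjusted p = 0.0404). Without the block these adjusted p-values were 0.535, 0.415, 0.14 and 0.452. Il13 was also called by DESeq2 (adjusted p = 0.0289) and with 1 RUVr factor (adjusted p = 0.0419). With Y665F, Csf2 was at 11.4 ± 1.46 CPM (SD, n = 3) in null and 9.68 ± 4.03 CPM in WT cells, and Il13 at 2.37 ± 0.953 and 3.035 ± 1.997 CPM. Il3 was at 9.27 ± 5.74 CPM in null and 38.55 ± 25.99 CPM in WT cells.

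The 7 members varied together to different degrees over the 30 CD4 libraries, which share vectors, replicate numbers and depth. After the group means were removed, the Pearson correlation of log2 levels was 0.801 between Il3 and Il13, 0.759 between Il3 and Csf2, 0.726 between Il3 and Il9 and 0.686 between Il3 and Il4. It was -0.127 between Il3 and Il10 and -0.198 between Il3 and Il5. The 5 genes whose log2 levels were most like a member were sought among 12120 genes with at least 1 CPM in 3 libraries. For Il3 they were Cdhr3 (r = 0.972), Gm29684, Sema3b, 2010204K13Rik and Slc13a3 (0.954), and for Csf2 Klf6 (0.948), Tgfbr3, Rai14, Nek6 and Atf3 (0.909). For Il9 they were Oxtr (0.963), Plaur, Ctgf, Plau and 2900011O08Rik (0.925), and for Il4 Fam198a (0.942), Ctsz, Pxmp4, Capsl and Ubl7 (0.927). Il13 was most like Rhoq (0.88), Lta, Chl1, Rragd and B3gnt5 (0.872). Il5 did not reach that level.

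Around the cytokines, 12 genes of their receptors, 25 regulators of T helper cells and 21 neighbours within the same loci were followed. Of the receptor genes, Il4ra and Il10ra were higher with N642H and with Y665F in null cells, and the other 10 were not called. Il4ra, the shared chain of the IL-4 and IL-13 receptors, rose from 94.2 ± 14.0 to 262 ± 40.1 CPM with N642H and 251 ± 55.8 CPM with Y665F (SD, n = 3), by 1.44 and 1.39 on the log2 scale (adjusted p = 4.81e-05 and 8.64e-05). STAT5B without a mutation also raised Il4ra, to 190 ± 27.9 CPM, by 1.002 on the log2 scale (adjusted p = 0.00607 by edgeR). Against STAT5B, Il4ra was called with neither N642H nor Y665F (adjusted p = 0.74 and 0.986 by edgeR). In WT cells it was at 380 ± 88.6 CPM with the empty vector, and no construct was called there. The median log2 fold change of the receptor list was 0.05 with N642H and -0.04 with Y665F in null cells, against 0.01 and -0.02 over all genes.

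Among the regulators, Batf3 rose and Bcl6 fell with both N642H and Y665F in null cells, and Nfil3 rose with N642H. Bcl6, the repressor that directs follicular helper cells, was at 32.4 ± 5.69 CPM with the empty vector, 6.34 ± 0.446 with N642H and 7.44 ± 1.81 with Y665F, log2 fold changes of -2.39 ± 0.22 and -2.16 ± 0.21 (adjusted p = 1.88e-06 and 6.74e-06). It also fell with STAT5B and did not pass the test with Y665H. In WT cells Bcl6 did not fall, at 4.7 ± 2.41 CPM with the empty vector, 9.3 ± 2.74 with N642H and 7.3 ± 1.15 with Y665F. No construct was called there. Its interaction of construct and background, null minus WT, was -2.12 for STAT5B, -3.32 for N642H and -2.75 for Y665F. All 3 were called without a block (adjusted p = 0.0271, 4.56e-05 and 0.000647 by edgeR). Batf3, an AP-1 factor, was at 0.65 ± 0.515 CPM with the empty vector, 10.7 ± 0.781 with N642H and 5.86 ± 2.59 with Y665F. Nfil3 with Y665F was at 0.99 on the log2 scale, just under the fold minimum (adjusted p = 0.000412). The other regulators, Gata3 among them, were not called in these 2 contrasts, and the list's median log2 fold change was 0.01 and 0.04. Of the neighbours, Acsl6, which lies next to Il3, rose with STAT5B, N642H and Y665F in null cells, from 4.59 ± 0.884 to 11.2 ± 2.4, 22.7 ± 6.59 and 24.5 ± 10.7 CPM. Pigr, on the chromosome of Il10, rose with N642H and Y665F. The other 19 neighbours were not called.

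Several marker lists moved with the constructs in null cells. The 5 genes of the ILC2 list summed to 196 to 309 CPM in null cells with the empty vector, 299 to 383 with Y665H, 752 to 1100 with STAT5B, 1360 to 1830 with N642H and 1220 to 1810 with Y665F. Of these 5 genes, 2 reached a mean of 1 CPM with the empty vector, STAT5B and N642H, and 3 with Y665H and Y665F. Il2ra, the gene of the IL-2 receptor alpha chain, which activated T cells also carry, led the ILC2 list in each of these groups. It led the regulatory T-cell list with every construct, whereas Ctla4 led that list with the empty vector. The 4 genes of the regulatory T-cell list summed to 462 to 572 CPM with the empty vector, 1770 to 2180 with N642H and 1560 to 2140 with Y665F. The T-cell list went from 3620 to 4220 CPM with the empty vector to 2930 to 3140 with N642H and 2980 to 3460 with Y665F, without overlap. The CD8 list was at 15.1 to 20.3 CPM with the empty vector, 9.07 to 12.7 with N642H and 8.18 to 16.2 with Y665F, and the eosinophil list at 3.48 to 9.6, 1.13 to 2.92 and 0.834 to 9.8 CPM. The mast cell and basophil list ran from 4.7 to 6.32 CPM with the empty vector, 2.82 to 4.3 CPM with N642H and 3.0 to 5.19 CPM with Y665F, and 1 of its 8 genes, Hdc, reached 1 CPM. The lists of B cells, of macrophages and monocytes, and of NK cells stayed at or below 6.43 CPM in these 3 groups. The part of other cells in the cytokine values was not tested. In bulk RNA, fewer cells of a type and less RNA per cell cannot be told apart.

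In splenic T cells of knock-in mice the members were low, and 2 of the 7 were called in a comparison between the mutations. Csf2 and Il13 were higher in Y665F than in Y665H cells under IL-2 and IL-7, where 4.78% of 22313 genes were called. Csf2 had 112, 53, 4 and 43 reads in Y665F cells (5.54, 3.75, 1.22 and 3.04 CPM for replicates 1 to 4) and 0, 2, 16 and 2 in Y665H cells (0, 0.972, 1.11 and 0.365 CPM). The groups did not overlap, although Y665F replicate 3, with 4 reads and the lowest depth of its group, lay just above the highest Y665H library. The log2 fold change was 2.37 ± 0.62 (adjusted p = 0.0237), and the call was lost without Y665H replicate 1, Y665H replicate 4 or Y665F replicate 1 (adjusted p = 0.0575, 0.0977 and 0.0608). Il13 had 13, 6, 2 and 6 reads in Y665F and none in the 4 Y665H libraries, at least 4.46-fold higher against 3 reads over that group (adjusted p = 0.0383). That call was lost when any 1 of the 8 libraries but Y665F replicate 2 was left out (adjusted p from 0.0565 to 0.117). Of the 4 Y665H libraries, 3 held under 6000000 reads. Without the libraries below that depth, an alternative chosen after seeing the data, 1 Y665H library remained and neither was called (adjusted p = 0.504 and 0.535).

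Compared with WT cells, no member was called with Y665F or Y665H, where 1.53% and 0.0717% of genes were. Csf2 was at 1.33, 3.21, 2.31 and 3.87 CPM in WT cells, above all Y665H libraries and within the range of Y665F. Its log2 fold change was -1.97 ± 0.62 in Y665H (adjusted p = 0.336) and 0.39 ± 0.51 in Y665F (95% interval -0.66 to 1.45). Il10 had 17, 9, 3 and 16 reads in Y665F cells (0.841, 0.637, 0.915 and 1.13 CPM) and 2, 7, 5 and 1 in WT cells (0.166, 0.351, 0.206 and 0.0656 CPM), with no overlap. Its difference of 2.06 ± 0.70 did not pass (adjusted p = 0.116), but DESeq2 (adjusted p = 0.034) and a fit with 1 RUVr factor (adjusted p = 0.028) called it. Il3 and Il9 had at most 4 and 7 reads in any splenic T-cell library.

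Under IL-2 and IL-7, Csf2 was also higher in Y665F cells than in Y665F cells without interleukin, which had 11, 9 and 4 reads (1.18, 0.687 and 0.268 CPM). This was 1 of 7 members called, against 2.97% of all genes, with a log2 fold change of 2.35 ± 0.63 (adjusted p = 0.0347). The study describes its RNA-seq of unstimulated T cells as done right after isolation. Where that holds for these libraries, the interleukins cannot be told apart from 24 h of culture. Both groups share the mutation, and no WT library without interleukin was analysed here, so this is a comparison within Y665F cells. It was no longer called under RLE scaling (adjusted p = 0.0753) or without any 1 of 5 libraries, Y665F replicate 1, 2 or 4 or replicate 2 or 3 of the cells without interleukin (adjusted p from 0.0563 to 0.162). Il4 was at 0.396 to 1.98 CPM with interleukins and 0.305 to 0.642 CPM without (1.42 ± 0.65, adjusted p = 0.26). Without interleukin Il10 was at 0.603 to 2.25 CPM and Il5 at 0.67 to 1.93 CPM, and both overlapped the cells with interleukins. The mast cell and basophil list summed to 19.1 to 43.4 CPM without interleukin, 12.1 to 21.0 CPM in Y665F and 10.6 to 15.5 CPM in Y665H cells with it, and 77.7% to 85.7% of reads without interleukin fell on no gene, against 67.6% to 84.0% in Y665F and 68.7% to 71.9% in Y665H cells with interleukins. The NK list, at 212 to 310 CPM in Y665F and 73.1 to 151 CPM in Y665H cells, and the B cell list, at up to 660 CPM in 1 Y665F library, also differed. With interleukins the regulatory T-cell list was at 343 to 615 CPM in Y665F, 77.9 to 272 CPM in Y665H and 277 to 450 CPM in WT cells. The part of these lists in the results was not tested.

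**Figure D4:**
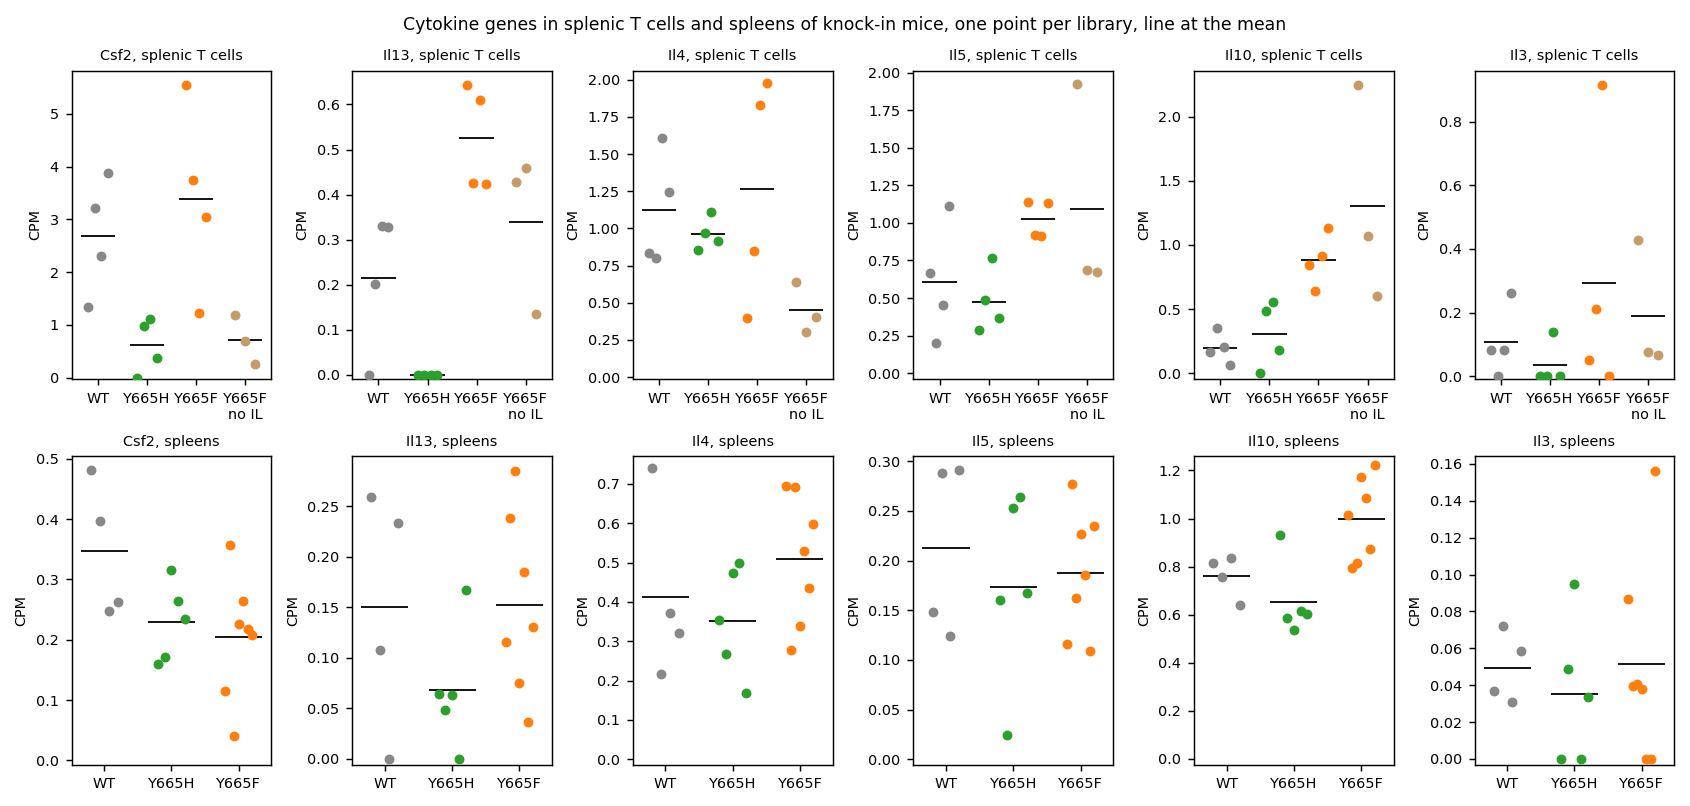
CPM (y axis, linear) of 6 cytokine genes in splenic T cells (upper row) and unstimulated spleens (lower row) by genotype (x axis), 1 point per library and a line at the mean. All 4 Y665H T-cell libraries were at 0 CPM for Il13, and all 4 Y665F libraries with interleukins were above all WT libraries for Il10.

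Of the 12 receptor genes, 2 were higher in Y665F than in Y665H T cells, namely Il4ra and Csf2rb, a signalling chain of the GM-CSF receptor that is named here after its values were seen. Il4ra was at 1070 ± 289 CPM in Y665F, 387 ± 85.1 CPM in Y665H and 272 ± 149 CPM in Y665F cells without interleukin (SD, n = 4, 4 and 3). It was called in both contrasts, at 1.46 ± 0.30 and 1.97 ± 0.33 on the log2 scale (adjusted p = 0.00359 and 0.000629). Of the 25 regulators, Nfil3 was higher in Y665F cells than in WT cells, Y665H cells and Y665F cells without interleukin (adjusted p = 0.0322, 0.000196 and 0.00719 by edgeR). It was 1 of 2, 3 and 4 regulators called higher there, where 1.53%, 4.78% and 2.97% of all genes were called. The others, named after their values were seen, were Runx3 against WT, and Bhlhe40 and Tbx21 against Y665H. Against cells without interleukin they were Bhlhe40, Irf4 and Tbx21.

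In unstimulated spleens the members were low, with 0 to 47 reads per library, and none was called, where 1.2% of 19418 genes were called in Y665F against WT, 4.37% in Y665H against WT and 5.28% in Y665F against Y665H. Il10 was the most abundant member by reads. It had 22, 21, 27 and 22 reads in WT (0.815, 0.756, 0.837 and 0.641 CPM) and 29, 24, 17, 21 and 18 in Y665H (0.93, 0.586, 0.538, 0.615 and 0.602 CPM). In the 7 Y665F spleens it ran from 0.793 CPM over a median of 1.01 to 1.22 CPM. Y665H replicate 1 and the 3 lowest Y665F spleens overlapped, and Y665F was above Y665H by 0.62 ± 0.18 on the log2 scale. This passed the p threshold (adjusted p = 0.0184) but not the fold minimum, and against WT the difference was 0.40 ± 0.19 (adjusted p = 0.189). Csf2 had 8 to 13 reads in WT, 5 to 10 in Y665H and 1 to 10 in Y665F spleens, with a log2 fold change of -0.73 ± 0.38 in Y665F against WT (adjusted p = 0.214). Il9 had 2 reads in 1 WT spleen and none in the other 15, and was left out of the fit. The T-cell list summed to 550 to 633 CPM in WT, 359 to 530 CPM in Y665H and 734 to 975 CPM in Y665F spleens. The regulatory T-cell list summed to 124 to 147 CPM in WT, 79.5 to 123 CPM in Y665H and 173 to 228 CPM in Y665F spleens. The part of either list in the Il10 difference was not tested.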

How the data were processed

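RNA was measured in 61 libraries. The deposited files hold raw counts of reads per gene, which the authors made with HTSeq 0.9.1 after trimming with Trimmomatic 0.36 and STAR alignment to mm10, per the submitters' processing notes. Lines for reads outside genes (28.4% to 85.7% of a library) were left out. Each of 5 fits (null CD4, WT CD4, both CD4 backgrounds, splenic T cells, spleens) kept genes whose reads summed to 10 or more across the libraries fitted, then used TMM scaling and the quasi-likelihood test of edgeR 4.0.16 (R 4.3.3) with Benjamini-Hochberg adjustment over all tested genes. A call needed a change of more than 1 on the log2 scale with an adjusted p below 0.05, and 95% intervals are the SE times the t quantile on the degrees of freedom of the fit. The script was tested on simulated data. Alternatives were RLE scaling, DESeq2 1.42.0, other filters, a replicate block, 1 RUVr factor, a prior count of 2, only the groups compared, and each library left out. The replicate numbers paired the CD4 libraries: the deviations of all 30 same-number pairs in null and all 30 in WT cells correlated above 0.1 (median r = 0.465 and 0.633), against 6 of 21 in splenic T cells and 4 of 13 in spleens. Bounds against 0 reads used 3 reads over the group and cover counting error only. The members, gene lists and tests were chosen with earlier results of these data known. Besides the 7 members, the text names list genes called with N642H or Y665F against the empty vector in null cells, up to 6 per list, and the 5 genes most like each member, those for Il10 not being reported here.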

Additional observations from a re-analysis of the deposited data

Results flagged for a closer look

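In 5 of 39 groups of 4 to 7 libraries, 1 library stood apart from the rest by Dixon's criterion. Chance meets it in about 1 in 20 groups of continuous values, a rate that does not hold for counts near 0. Il3 and Il9 in Y665H T cells and Il9 in WT spleens were at 0 reads in all libraries but 1. The share of 5 in 39 can therefore not be set against that rate. In splenic T cells these were Il3 in Y665H replicate 3 (0.139 CPM, 2 reads), Il9 in WT replicate 4 (0.3279 CPM, 5 reads, with the next library at 0.0502 CPM) and Il9 in Y665H replicate 3 (0.2085 CPM, 3 reads). In spleens they were Il9 in WT replicate 2 (0.07202 CPM, 2 reads) and Il10 in Y665H replicate 1 (0.9302 CPM, 29 reads, with the next library at 0.6149 CPM).

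The response to a construct differed between null and WT CD4+ T cells when replicate numbers were blocked within each background, an alternative chosen after seeing the data. The difference of the log2 responses, null minus WT, was 1.321 for Csf2 with N642H, 1.636 for Csf2 with Y665F, 4.728 for Il13 with Y665F and 2.761 for Il3 with Y665F. The Il13 test shares the empty-vector libraries that took part in the choice of Il13, so it is not independent of that choice. In the fit without a block no member passed this test. The Il13 difference with Y665F also passed by DESeq2 and with 1 RUVr factor (adjusted p = 0.0289 and 0.0419), and without the libraries numbered 3 all 4 did.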

How the results depend on the processing

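Counts of called members here include Il9 and Il13 in contrasts without N642H. Of the member results under alternatives, 808 kept their direction and side of the threshold, 78 passed it newly, 49 lost it and 12 changed sign. For null cells with STAT5B against the empty vector, 1 member was called, against 4 by DESeq2, 3 with no filter on low counts, 3 with the replicate block, 2 with 1 RUVr factor, 3 without the libraries numbered 3, and 0 to 2 with 1 library left out. For N642H against STAT5B in null cells, none was called, against 1 by DESeq2, with no filter, the block, 1 RUVr factor, only the groups compared, or without the libraries numbered 3. For Y665F against STAT5B there, none became 2 by DESeq2, with no filter or with the block, 3 without the libraries numbered 3 and 0 to 1 with 1 library left out. For Y665H against STAT5B, 1 became 2 without the libraries numbered 3 and 0 to 1 with 1 library left out. In WT cells against the empty vector, STAT5B went from 0 to 2 with the block, 1 with RUVr and 2 without the libraries numbered 3. N642H went from 0 to 2 by DESeq2, 3 with the block, 3 with RUVr, 1 with only the groups compared, 3 without the libraries numbered 3 and 0 to 1 with 1 library left out. Y665F went from 1 to 2 by DESeq2, with no filter or with only the groups compared, 4 with the block, with RUVr or without the libraries numbered 3, and 1 to 3 with 1 library left out. Against STAT5B in WT cells, N642H went from 0 to 1 with the block or RUVr, and Y665F from 0 to 2 with the block and 1 with RUVr or without the libraries numbered 3. Null against WT cells had 4 calls, and 2 to 4 with 1 library left out. The N642H interaction went from 0 to 1 with the block within each background or without the libraries numbered 3, and the Y665F interaction from 0 to 1 by DESeq2, with the plain block or RUVr and to 3 with the other alternatives of the same kind. In splenic T cells, where the numbers did not pair the libraries, Y665F against WT went from 0 to 1 by DESeq2 or RUVr. Y665F against Y665H went from 2 to 1 by DESeq2 or filterByExpr, 0 with the replicate block or without libraries under 6000000 reads, and 0 to 2 with 1 library left out. Y665F with against without interleukin went from 1 to 0 with RLE size factors, filterByExpr, the block or only the groups compared, and 0 to 1 with 1 library left out. In spleens Y665F against Y665H went from 0 to 1 with no fold minimum. Signs turned for small differences. Between Y665F and N642H in null cells, Csf2 ran from -0.11 to 0.17 and Il4 from -0.73 to 0.53 with 1 library left out, and Il4 was -0.020 with the block and -0.11 without the libraries numbered 3. Between Y665H and the empty vector in WT cells, Il3 ran from -0.10 to 0.73, Csf2 from -0.14 to 0.64 and Il5 from -0.74 to 3.50 with 1 library left out, and Il5 was -0.55 without the libraries numbered 3. Over all genes, calls by edgeR, with the block and by DESeq2 numbered 96, 204 and 167 for STAT5B, 14, 66 and 48 for N642H against STAT5B, 2, 39 and 27 for Y665F against STAT5B, 5, 21 and 13 for Y665H, and 30, 116 and 67 for Y665H against STAT5B in null cells. In WT cells they numbered 2, 86 and 13 for STAT5B, 202, 532 and 347 for N642H, 145, 501 and 309 for Y665F, 1, 94 and 21 for N642H against STAT5B and 0, 44 and 10 for Y665F against STAT5B. In splenic T cells they numbered 342, 155 and 953 for Y665F and 16, 9 and 90 for Y665H against WT. In spleens the block moved calls from 233 to 103 for Y665F against WT and from 1025 to 653 for Y665F against Y665H. The causes were not tested. Libraries below that depth limit what splenic T cells show of genes at a few reads.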
